A study of Homo sapiens with 12 samples.

Results

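The genes described here are 9 genes of plasminogen activation and of the clade B serpins, picked by gene symbol from a deposited table of raw read counts for 58735 genes. They were the urokinase gene PLAU, the tissue plasminogen activator gene PLAT, the urokinase receptor gene PLAUR, the inhibitor genes SERPINE2 and SERPINB2, and the clade B serpin genes SERPINB3, SERPINB4, SERPINB5 and SERPINB13. Each symbol matched 1 row of the table, and all 9 genes were among the 16618 genes with a mean of at least 10 raw counts over the libraries, which were tested. RNA was sequenced from HaCaT, an immortalized line of skin keratinocytes, and from TIGK, an immortalized line of gingival keratinocytes, and the 4 groups of 3 libraries were untreated TIGK, TIGK exposed for 3 h to 5 mM H2O2, untreated HaCaT and HaCaT given the same H2O2 treatment. The untreated cells stayed in keratinocyte medium, and both lines had been grown to full confluency before the treatment. The treatment tags of the H2O2 libraries also hold the formulas H2O3 and H2O4, while the treatment protocol names H2O2 alone, and all were taken as H2O2 libraries. Each tissue was represented by 1 line, so tissue of origin and cell line cannot be told apart. The labels do not say whether the 3 libraries of a group came from separate cultures, so p-values measure only the spread between these libraries, which may be technical.

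Plasminogen is a circulating zymogen that is cut to the broad protease plasmin by urokinase or by tissue plasminogen activator. Urokinase acts mostly at the cell surface, bound to its receptor, and is blocked by serpins, which trap the protease they meet. In stratified epithelia the urokinase system is known for its part in keratinocyte migration during wound closure, and the clade B serpins are mostly intracellular proteins whose targets include plasminogen activators and lysosomal cathepsins.

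Library totals ran from 30426401 to 49034244 counts. The 9 genes together took 0.0996% to 0.108% of the counts in the 6 TIGK libraries, 0.407% to 0.412% in untreated HaCaT and 0.294% to 0.308% in HaCaT with H2O2. The share of mitochondrial counts was lower after H2O2 in both lines, at 3.33% to 3.45% and then 1.39% to 1.5005% in TIGK and at 6.10% to 6.26% and then 3.30% to 3.51% in HaCaT. All 8 keratinocyte markers had counts in every group, with a summed level of 40238 to 55635 CPM. The markers of fibroblasts (at most 19.9 CPM in sum, COL1A2 at 0 throughout), endothelium (at most 1.60), immune cells (at most 3.48) and melanocytes (at most 2.49) stayed far below. In such bulk RNA, a lower count can come from fewer cells with a transcript or from less of it per cell, and these cannot be told apart.

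In untreated cells, 8 of the 9 genes were higher in HaCaT and PLAT was higher in TIGK, all at an adjusted p under 0.01 in the quasi-likelihood test of edgeR (adjusted after Benjamini-Hochberg over all tested genes), the limit used throughout. Of all tested genes, 59.9% passed in this comparison, 29.1% with a higher and 30.8% with a lower level in HaCaT. The libraries of the lines did not overlap for any of the 9 genes, untreated or treated, which held for 73.3% of all tested genes without H2O2 and for 71.3% with it. The median log2 difference, HaCaT minus TIGK, was 1.91 over the 9 genes and -0.01 over all tested genes. The largest gaps were those of SERPINB2 (16.9-fold), SERPINB4 (9.20-fold), SERPINB3 (5.18-fold), SERPINB5 (4.73-fold) and PLAU (3.77-fold).

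After H2O2, 3 of the 9 genes passed in TIGK, where 23.2% of all tested genes did (10.2% higher and 12.9% lower): PLAU rose, and SERPINE2 and SERPINB2 fell. In HaCaT 6 of the 9 passed, where 34.1% of all tested genes did (18.9% higher and 15.2% lower): PLAUR and SERPINB3 rose, and PLAU, SERPINB2, SERPINB5 and SERPINB13 fell. Without mitochondrial genes, 2522 of all tested genes were called higher and 2820 lower in HaCaT, against 3135 higher and 2529 lower with them. The 6 members stayed at 2 higher and 4 lower. The HaCaT changes of other genes named below were not examined without mitochondrial genes. The response itself differed between the lines in 6 of the 9 genes, against 5.3% of all tested genes (2.32% higher and 2.98% lower in TIGK). PLAU was the one member that passed in both lines in opposite directions. Treated and untreated libraries did not overlap for 6 of the 9 genes in TIGK, against 51.1% of all tested genes, and for 7 in HaCaT, against 53.8%.

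**Figure D1:**
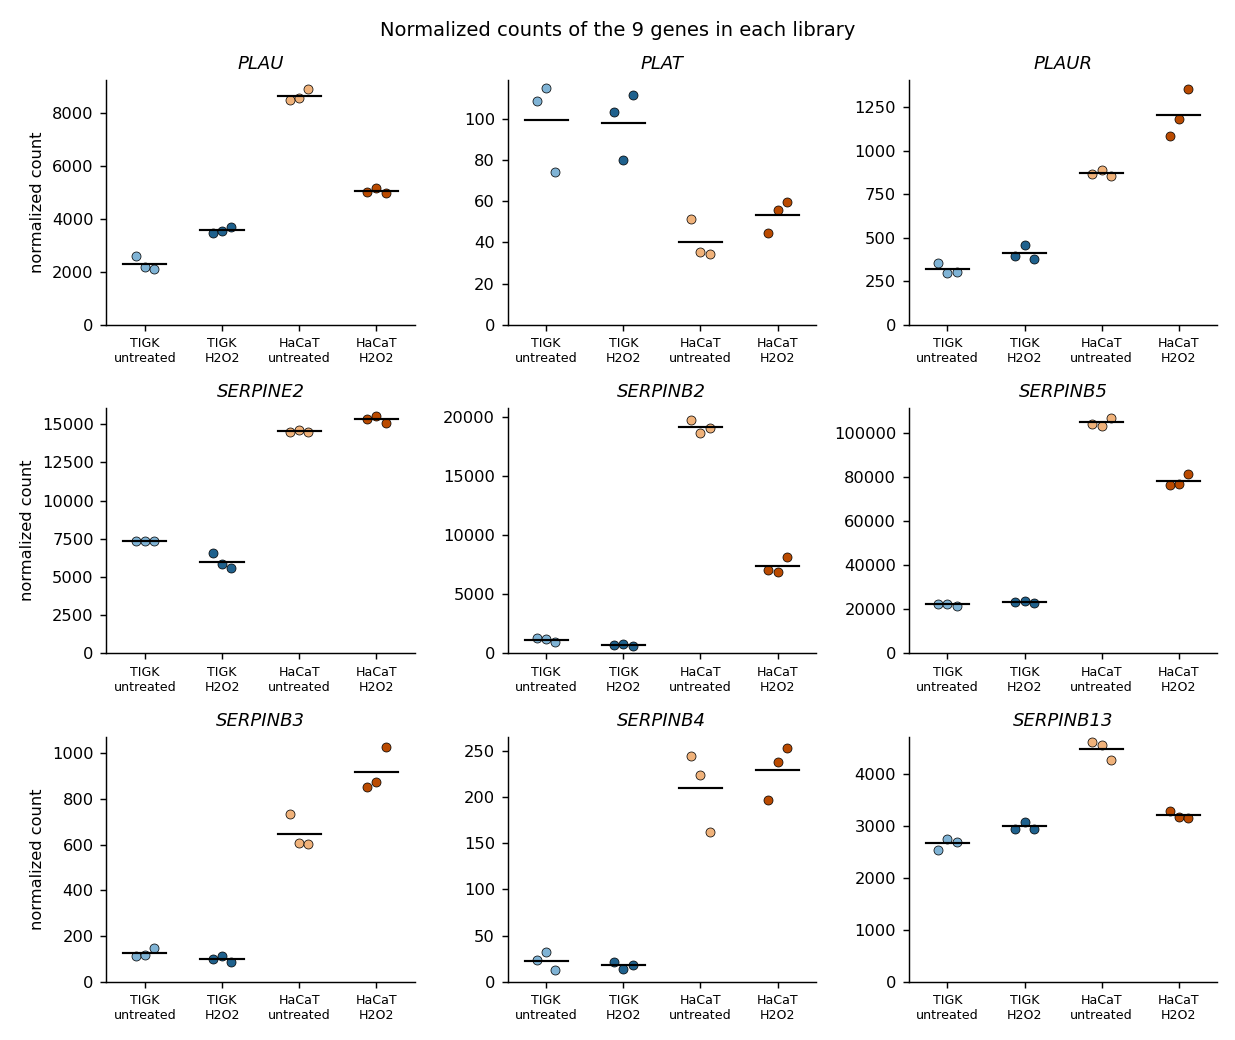
Normalized counts (vertical axes, from 0, scaled for each gene) of the 9 genes in the 12 libraries, with 1 point for each library and a bar at the mean of each group of 3 libraries. PLAU rises in TIGK and falls in HaCaT after H2O2, and the TIGK libraries of PLAT sit above those of HaCaT, unlike the other 8 genes.

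PLAU encodes urokinase and lies on chromosome 10 at 73909177 to 73917497 of GRCh38. Normalized counts, meaning raw counts rescaled by TMM to a library of mean size, were 2610.4, 2176 and 2113 in untreated TIGK, and 3479, 3564 and 3697 in TIGK with H2O2. In untreated HaCaT they were 8508, 8574 and 8932, and in HaCaT with H2O2 5038, 5164 and 4979. No library of any group overlapped those of another, and the order from low to high was untreated TIGK, TIGK with H2O2, HaCaT with H2O2 and untreated HaCaT. The TIGK response was a log2 change of 0.64 (SE 0.07, adjusted p = 6.42e-07), and the HaCaT response was -0.78 (SE 0.06, adjusted p = 3.23e-08). PLAU thus moved 1.56-fold up in TIGK and 1.71-fold down in HaCaT. The difference of the responses, TIGK minus HaCaT, was 1.42 on the log2 scale (SE 0.09, adjusted p = 1.11e-08). The gap between the lines was 3.77-fold without treatment (adjusted p = 7.41e-15) and 1.41-fold after H2O2 (adjusted p = 1.53e-06), HaCaT being higher both times. An overlapping gene on the other strand, C10orf55, had 8 to 69 raw counts per library, and whether the counting used the strand is not given in the sources used here.

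PLAT encodes tissue plasminogen activator, the other main activator, and lies on chromosome 8. It was the scarcest activator, with 74.2 to 115 normalized counts in untreated TIGK, 79.95 to 112 in TIGK with H2O2, 34.6 to 51.2 in untreated HaCaT and 44.5 to 59.8 in HaCaT with H2O2. The lines did not overlap, while treated and untreated libraries of each line did. PLAT was 2.43-fold higher in untreated TIGK (log2 difference, HaCaT minus TIGK, -1.28, SE 0.26, adjusted p = 0.000225) and 1.84-fold higher after H2O2 (-0.88, SE 0.26, adjusted p = 0.00517). The later gap passed in 8 of the 12 fits that left out 1 library, with adjusted p up to 0.0203 over all alternatives. Neither response passed, with a log2 change of -0.02 in TIGK (95% interval -0.53 to 0.50) and 0.39 in HaCaT (-0.18 to 0.96). Per gene length, PLAU stood 42.4 to 63.9 times above PLAT in untreated TIGK and 373 to 580 times in untreated HaCaT. These ratios rest on the listed lengths, 2950 bases for PLAU and 6618 for PLAT.

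PLAUR encodes the receptor that holds urokinase at the cell surface and lies on chromosome 19 at 43646095 to 43670547. Normalized counts were 355, 299.6 and 302 in untreated TIGK and 397, 457 and 379 in TIGK with H2O2. They were 866.5, 886 and 853 in untreated HaCaT and 1084, 1184 and 1354 in HaCaT with H2O2. The treated libraries were above the untreated ones in both lines. The HaCaT rise passed (log2 change 0.47, SE 0.10, adjusted p = 0.000647), and the TIGK change was 0.36 (SE 0.11, adjusted p = 0.0129), short of the limit. The responses differed by -0.11, TIGK minus HaCaT, with a 95% interval of -0.42 to 0.20 (adjusted p = 0.694). PLAUR was 2.72-fold higher in untreated HaCaT and 2.94-fold higher in HaCaT after H2O2. In HaCaT the mRNA of the ligand fell as that of its receptor rose. Per gene length, PLAU stood at 14.6 to 15.8 times PLAUR in the untreated libraries and at 5.55 to 7.02 times in the treated ones. In TIGK that ratio was 10.6 to 11.1 without and 11.8 to 14.7 with H2O2.

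SERPINE2 encodes protease nexin-1, a secreted serpin that inhibits urokinase and thrombin, and lies on chromosome 2 at 223975112 to 224039319. Normalized counts were 7336, 7341 and 7326 in untreated TIGK and 6537, 5829 and 5580.2 in TIGK with H2O2. They were 14512, 14613 and 14509 in untreated HaCaT and 15350, 15548 and 15102 in HaCaT with H2O2. All treated libraries were below the untreated ones in TIGK and above them in HaCaT. SERPINE2 fell in TIGK by 0.29 on the log2 scale (SE 0.06, adjusted p = 4e-04), while the HaCaT change of 0.08 did not pass (adjusted p = 0.272). The difference of responses was -0.37, TIGK minus HaCaT (SE 0.08, adjusted p = 0.00417). It passed in 4 of the 12 fits that left out 1 library, and it missed the limit once mitochondrial genes, whose share moved with H2O2, were left out (adjusted p = 0.011). The fall in TIGK passed in 11 of those 12 fits, and without the third TIGK library with H2O2 it was 0.22 with an adjusted p of 0.011. SERPINE2 was 1.98-fold higher in untreated HaCaT and 2.56-fold higher in HaCaT after H2O2.

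SERPINB2 encodes plasminogen activator inhibitor-2, a urokinase inhibitor of keratinocytes and monocytes that stays largely inside the cell. It lies on chromosome 18 at 63871692 to 63903890. Normalized counts were 1280.3, 1195 and 918 in untreated TIGK and 665, 796 and 592 in TIGK with H2O2. In untreated HaCaT they were 19762, 18583 and 19087, and in HaCaT with H2O2 they were 7036, 6894 and 8172. Every treated library was below every untreated one of its line, and even the treated HaCaT libraries stood far above all TIGK libraries. SERPINB2 fell in both lines, by 0.73 on the log2 scale in TIGK (SE 0.11, adjusted p = 5.64e-05) and by 1.38 in HaCaT (SE 0.10, adjusted p = 5.11e-09). The difference of responses was 0.65, TIGK minus HaCaT (SE 0.15, adjusted p = 0.00767), and it passed in 5 of the 12 fits that left out 1 library, with adjusted p up to 0.0259. The gap between the lines was 16.9-fold without treatment (adjusted p = 2.4e-16) and 10.8-fold after H2O2 (adjusted p = 2.92e-15). SERPINB10, which overlaps SERPINB2 on the same strand by 6717 bases, had 3 to 50 raw counts per library. Whether these counts of SERPINB10 include reads from SERPINB2 was not tested.

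**Figure D2:**
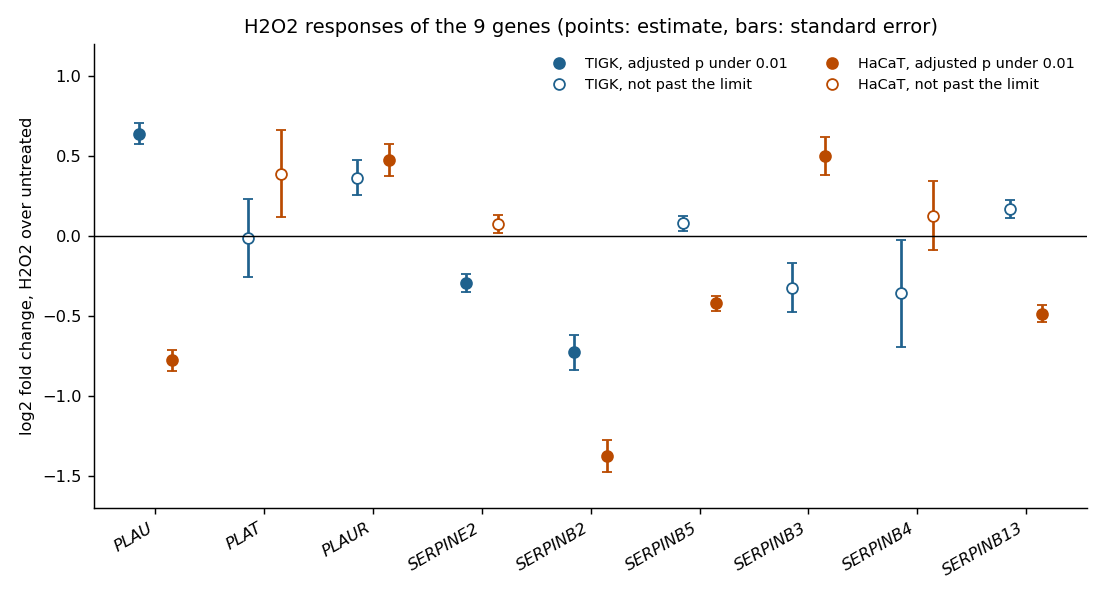
Log2 fold change of each gene after H2O2 (vertical axis) in TIGK and in HaCaT, with bars of 1 standard error and filled points where the adjusted p was under 0.01. PLAU lies at 0.64 in TIGK and at -0.78 in HaCaT, and SERPINB2 lies lowest, at -0.73 and -1.38.

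SERPINB5 encodes maspin, an epithelial serpin that does not inhibit proteases in the usual way, and lies on chromosome 18 at 63476761 to 63505085. Normalized counts were 22434, 22409 and 21573 in untreated TIGK and 23359, 23921 and 22900 in TIGK with H2O2. They were 104150, 103140 and 106970 in untreated HaCaT and 76413, 77019 and 81517 in HaCaT with H2O2. The TIGK groups lay close together, and the treated HaCaT libraries were all below the untreated ones. SERPINB5 fell in HaCaT by 0.42 (log2, SE 0.05, adjusted p = 1.34e-06), while the TIGK change was 0.08 (95% interval -0.02 to 0.18, adjusted p = 0.205). The difference of responses was 0.50, TIGK minus HaCaT (SE 0.07, adjusted p = 7.32e-05). SERPINB5 was 4.73-fold higher in untreated HaCaT and 3.35-fold higher in HaCaT after H2O2. Genes within its bounds on the same strand, ATP5MC1P6 and AC036176.3, had at most 162 and 138 raw counts.

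SERPINB13 encodes headpin, a serpin of stratified epithelia that inhibits cathepsins, and lies on chromosome 18 at 63586989 to 63604639. Normalized counts were 2539, 2756 and 2699.7 in untreated TIGK and 2949, 3085 and 2946.5 in TIGK with H2O2. They were 4615, 4559 and 4276 in untreated HaCaT and 3286, 3170 and 3159 in HaCaT with H2O2. The treated libraries lay above the untreated ones in TIGK and below them in HaCaT, as for PLAU. The HaCaT fall of 0.48 on the log2 scale passed (SE 0.05, adjusted p = 1.24e-06), and the TIGK change of 0.17 did not (SE 0.05, adjusted p = 0.0225). The responses differed by 0.65, TIGK minus HaCaT (SE 0.08, adjusted p = 1.75e-05). The line difference was 1.68-fold in untreated cells (adjusted p = 3.66e-10), and after H2O2 it was 1.07-fold and no longer passed (log2 difference 0.10, 95% interval -0.02 to 0.21, adjusted p = 0.116). SERPINB13 was the one member that did not pass between the treated lines, so 8 of 9 genes passed there, 7 higher in HaCaT and PLAT higher in TIGK, against 60% of all tested genes (30.2% higher and 29.8% lower in HaCaT).

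SERPINB3 and SERPINB4 encode the squamous cell carcinoma antigens, neighbouring serpins of which the former inhibits cathepsin L-like cysteine proteases and the latter cathepsin G and chymase. They lie on chromosome 18 at 63655197 to 63661963 and at 63637259 to 63644298, and their coding sequences matched at 95.2% of positions (1114 of 1170 bases), while the other pairs of the 5 clade B members matched at 49% to 67.6%. Over the 250 bases before their RefSeq starts they differed at 3 positions, G126A, G201A and C228T, with the SERPINB3 base first and positions counted from 1 at the 5′ end of the window. The first 180 of these bases, which lie outside the gene bounds of the deposited table, are shown for the near identity of the pair, from RefSeq on GRCh38.p14, with the differing base in capitals.
SERPINB3, chr18:63661964-63662143, minus strand: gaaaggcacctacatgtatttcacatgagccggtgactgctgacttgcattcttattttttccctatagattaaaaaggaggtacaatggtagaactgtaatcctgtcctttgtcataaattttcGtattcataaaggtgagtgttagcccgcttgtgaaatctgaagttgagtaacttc
SERPINB4, chr18:63644327-63644506, minus strand: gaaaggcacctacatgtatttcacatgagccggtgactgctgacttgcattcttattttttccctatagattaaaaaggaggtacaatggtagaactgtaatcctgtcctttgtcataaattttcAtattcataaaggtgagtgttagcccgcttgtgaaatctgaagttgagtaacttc

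SERPINB3 had 114, 116 and 146 normalized counts in untreated TIGK, 99.8, 114 and 87.9 in TIGK with H2O2, 733, 609 and 604 in untreated HaCaT and 852, 875 and 1026 in HaCaT with H2O2. The TIGK groups overlapped, and the treated HaCaT libraries were all above the untreated ones. SERPINB3 rose in HaCaT by 0.50 on the log2 scale (SE 0.12, adjusted p = 0.00211), and the TIGK change was -0.32 (SE 0.15, adjusted p = 0.11). The HaCaT rise passed in 9 of the 12 fits that left out 1 library, with adjusted p up to 0.0146. The difference of responses was -0.82, TIGK minus HaCaT (SE 0.19, adjusted p = 0.0094). It passed in 1 of those 12 fits, with adjusted p up to 0.0602, and missed the limit without mitochondrial genes (adjusted p = 0.0153). SERPINB4 had 12.5 to 32.1 normalized counts in untreated TIGK, 14.3 to 20.9 in TIGK with H2O2, 162 to 244 in untreated HaCaT and 197 to 253 in HaCaT with H2O2. Its treated and untreated libraries overlapped in both lines, and neither response passed (adjusted p = 0.435 in TIGK and 0.665 in HaCaT). The line difference was 5.18-fold for SERPINB3 and 9.20-fold for SERPINB4 in untreated cells, and 9.14-fold and 12.9-fold after H2O2. No stretch of 150 bases, the read length, was shared by their 1707-base reference transcripts, but how reads that map to more than 1 place were counted is not given in the sources used here. With the pair summed, the HaCaT rise was 0.42 (adjusted p = 0.00349) and the difference of responses -0.74 (adjusted p = 0.00877).

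Levels of different genes were compared as normalized CPM per kilobase of the listed gene length. SERPINB5 was the highest of the 9 in every group, at 155 ± 3.42 (SD, n = 3) in untreated TIGK, 164 ± 3.58 in TIGK with H2O2, 732 ± 13.9 in untreated HaCaT and 548 ± 19.5 in HaCaT with H2O2. SERPINB2 came second in HaCaT, at 192 ± 5.93 and 73.8 ± 7.02, but stood at 11.3 ± 1.90 and 6.86 ± 1.03 in TIGK, below PLAU, SERPINE2 and SERPINB13. By normalized counts not scaled by length, SERPINE2 was above SERPINB2 in treated HaCaT (means of 15333 and 7367). It was below SERPINB2 in untreated HaCaT (14545 and 19144). The second place in treated HaCaT thus rests on the listed lengths, 8891 bases for SERPINE2 and 2748 for SERPINB2. SERPINB5 made up 83.5% to 84.3% of the summed level of the 5 clade B members in untreated TIGK and 75.2% to 76.6% in untreated HaCaT. After H2O2 its share was 85.4% to 86.3% in TIGK and 82.6% to 83.7% in HaCaT, where that of SERPINB2 went from 19.6% to 20.4% down to 10.7% to 11.9%. SERPINB13 held 8.24% to 9.17% of that sum in untreated TIGK and 2.66% to 2.92% in untreated HaCaT, although its own level was higher in HaCaT.

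**Figure D3:**
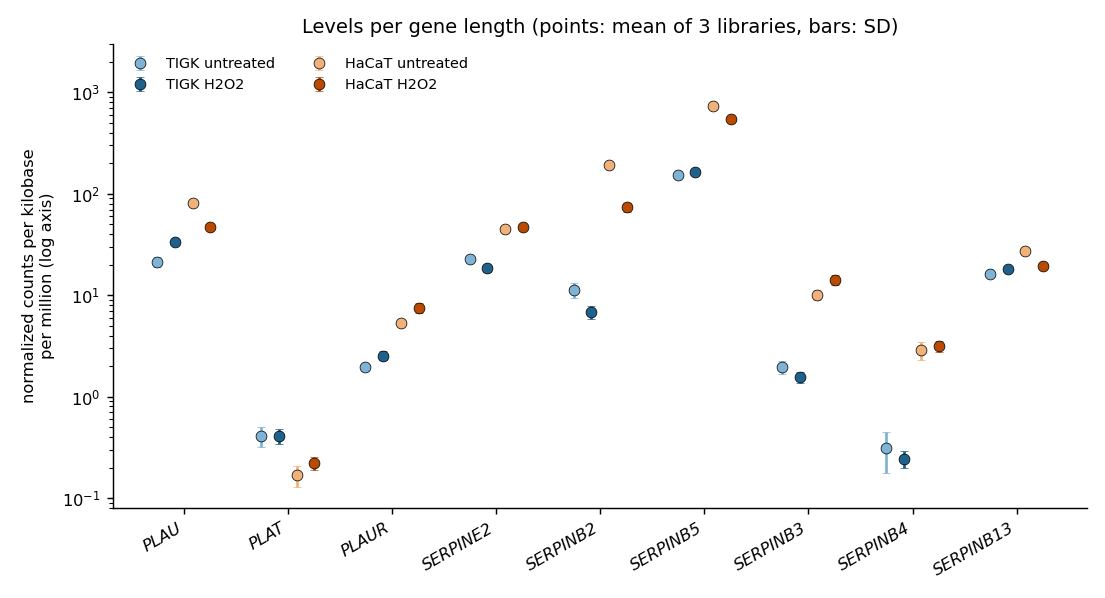
Level of each gene per gene length (normalized CPM per kilobase, log axis) in the 4 groups, as the mean of 3 libraries with bars of 1 SD. SERPINB5 is highest in every group and PLAT is lowest in HaCaT, at 0.168 untreated, while SERPINB4 is lowest in TIGK, at 0.310 untreated.

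The 5 clade B members are part of a cluster of 10 clade B serpin genes that spans 543.02 kb of chromosome 18, from 63476761 to 64019779. In gene order these are SERPINB5, SERPINB12, SERPINB13, SERPINB4, SERPINB11, SERPINB3, SERPINB7, SERPINB2, SERPINB10 and SERPINB8. SERPINB11 and SERPINB12 had too few counts to test. All 8 tested genes, the 5 members among them, had log2 differences above 0, HaCaT minus TIGK, in untreated cells. These ran from 0.75 for SERPINB13 to 4.08 for SERPINB2, and all 8 were called, against 29.1% of all tested genes higher in HaCaT. The members were chosen with earlier results of these data known, so this count carries no test of the cluster. After H2O2, SERPINB13 (adjusted p = 0.116) and SERPINB10 (adjusted p = 0.0108, with overlapping libraries) did not pass in edgeR. H2O2 did not move the cluster as a block in HaCaT: SERPINB5, SERPINB13, SERPINB2 and SERPINB8 fell (SERPINB8 by 0.43, adjusted p = 0.000104), while SERPINB3 and SERPINB7 rose (SERPINB7 by 0.25, adjusted p = 0.00383). SERPINB4 and SERPINB10 did not pass there, and 18.9% of all tested genes rose and 15.2% fell. The changes of SERPINB7 and SERPINB8 were not examined without mitochondrial genes.

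**Figure D4:**
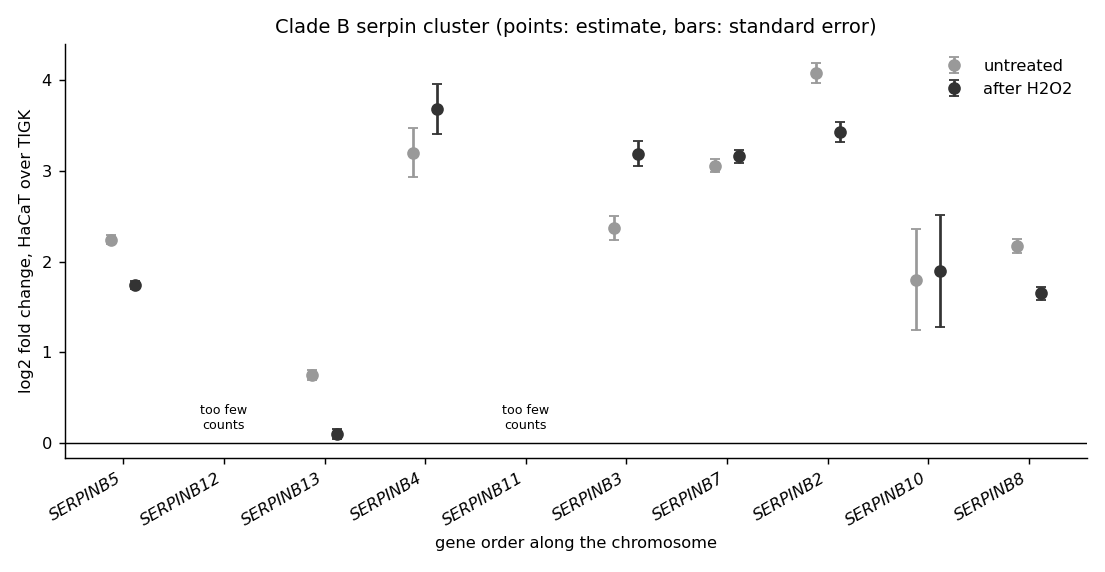
Log2 fold change of HaCaT over TIGK (vertical axis) for the 10 clade B serpin genes in their order along the chromosome, untreated and after H2O2, with bars of 1 standard error. The 8 tested genes lie above 0, with SERPINB13 nearest to it after H2O2 (0.10), and SERPINB12 and SERPINB11 had too few counts. SERPINB13 and SERPINB10 did not pass after H2O2.

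Windows of 250 bases before the RefSeq starts were searched on both strands for TGANTCA, a loose form of the AP-1 motif. Here N is any base, while the usual motif has C or G there. AP-1 is a known regulator of several of these genes. RefSeq windows were used for 8 of the 9 genes, PLAU and SERPINE2 having a pair of starts each, and PLAT was not searched. TGANTCA occurred in 4 of the 10 windows, those of PLAUR, SERPINB2, SERPINB5 and SERPINB13, and in 6.57% of 35116 windows of the same length before all starts. The middle base was G in PLAUR, C in SERPINB13, and A in SERPINB2 and SERPINB5. Each match (in capitals) with 10 bases on each side is shown to let the genes be compared.
PLAUR, chr19:43670339-43670365, minus strand: cacaactccaTGAGTCAgggccgagcc
SERPINB2, chr18:63887593-63887619, plus strand: agtaaaatgtTGAATCActcaaaggac
SERPINB5, chr18:63476802-63476828, plus strand: aacttcagccTGAATCAtttctttcaa
SERPINB13, chr18:63587246-63587272, plus strand: cgagagatgcTGACTCAgttggtctgg

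The match began 186 bases before the start in PLAUR, 102 in SERPINB2, 146 in SERPINB5 and 87 in SERPINB13. All 4 matches lie inside the gene bounds of the deposited table, where other starts are annotated, and that of PLAUR overlaps an exon of a longer GENCODE transcript while the other 3 overlap no exon of their gene. Of the genes with a match, PLAUR rose and the other 3 fell in HaCaT after H2O2. In TIGK SERPINB2 alone of them passed, and it fell. Whether AP-1 has a part in these changes was not tested. The whole window of SERPINB2, the member with the largest gap between the untreated lines, is shown with the TGANTCA match and a TATA box in capitals. Its TATAAA begins 30 bases before the start, and 10.7% of all windows hold these letters on either strand.
SERPINB2, chr18:63887455-63887704, plus strand: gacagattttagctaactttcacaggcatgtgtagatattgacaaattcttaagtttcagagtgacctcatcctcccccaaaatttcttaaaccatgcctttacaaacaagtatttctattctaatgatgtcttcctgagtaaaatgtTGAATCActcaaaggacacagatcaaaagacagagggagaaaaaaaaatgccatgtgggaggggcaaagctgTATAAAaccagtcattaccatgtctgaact

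No other member window that was searched held TATAAA. A match is a description of the letters only, and the windows of PLAU, SERPINE2, SERPINB3 and SERPINB4 held no TGANTCA.

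Of 12 other genes of the plasminogen system, 9 could be tested. In TIGK 1 rose and 2 fell after H2O2, where 23.2% of all tested genes passed. In HaCaT 3 rose and 2 fell, where 34.1% of all tested genes passed. S100A10, which with ANXA2 forms a plasminogen-binding surface complex, rose in TIGK by 0.34 (adjusted p = 0.000317) and in HaCaT by 0.48 (adjusted p = 6.79e-06). ANXA2 rose in HaCaT by 0.35 (adjusted p = 0.00048), as did ENO1, a glycolytic enzyme that binds plasminogen at the cell surface, by 0.35 (adjusted p = 0.000106). The genes that fell in both lines were LRP1, the endocytic receptor that clears activator and inhibitor complexes, and MRC2, a collagen receptor that associates with the urokinase receptor. LRP1 fell by 0.47 in TIGK (SE 0.13, adjusted p = 0.00954) and by 1.18 in HaCaT (SE 0.14, adjusted p = 1.8e-06), and MRC2 fell by 0.40 in TIGK (SE 0.08, adjusted p = 0.000423) and by 0.45 in HaCaT (SE 0.08, adjusted p = 0.000127). For the difference of responses 0 of the 9 passed in edgeR, against 5.3% of all tested genes, 2 had an unadjusted p under 0.05, and DESeq2 called 1. Between the untreated lines 3 of the 9 were higher and 4 lower in HaCaT, where 59.9% of all tested genes passed. After H2O2 3 were higher and 4 lower, where 60% passed.

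PLG, the gene of plasminogen itself, had 4 raw counts in 1 untreated TIGK library and 0 in the other 11 libraries, where a count of 0 allows up to 3 counts. SERPINA5 had 0 counts in all 12 libraries. Of the proteases that clade B serpins inhibit, CTSG and ELANE had 0 counts in all libraries, and CTSL, CTSV and CTSK could be tested of 6 listed. For the HaCaT response 1 of these 3 passed, where 34.1% of all tested genes did. This was CTSV, a cysteine cathepsin of epithelia, which rose by 0.42 (adjusted p = 0.000178). In edgeR, 0 of these 3 passed for the TIGK response, against 23.2% of all tested genes. There 0 had an unadjusted p under 0.05 and DESeq2 called 0. For the difference of responses 0 passed, against 5.3% of all tested genes, 1 had an unadjusted p under 0.05, and DESeq2 called 0. CTSL and CTSV were lower and CTSK was higher in untreated HaCaT than in untreated TIGK, and likewise after H2O2. Of all tested genes, 59.9% and 60% passed between the lines.

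Among 8 other clade B serpins, 6 could be tested. In TIGK 0 passed after H2O2 in edgeR, against 23.2% of all tested genes, with 0 at an unadjusted p under 0.05 and 0 called by DESeq2. In HaCaT 1 rose (SERPINB7) and 2 fell (SERPINB1 and SERPINB8), where 34.1% of all tested genes passed. SERPINB1, an inhibitor of neutrophil proteases, fell in HaCaT by 0.59 (adjusted p = 3.89e-05) and differed in response by 0.73, TIGK minus HaCaT (adjusted p = 0.00192). SERPINB8 differed by 0.52 (adjusted p = 0.00302). Between the untreated lines 4 of the 6 were higher in HaCaT and SERPINB9 was lower, where 59.9% of all tested genes passed. After H2O2 3 were higher and SERPINB9 was lower, where 60% passed. SERPINB9, the inhibitor of granzyme B, had 0 counts in all 6 HaCaT libraries and 110 ± 31.8 normalized counts (SD, n = 3) in untreated TIGK. With the HaCaT libraries set to a floor of 3 counts each, SERPINB9 came out at least 38.6-fold higher in untreated TIGK and at least 32.6-fold higher in treated TIGK. It went against the direction of the clade B members.

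The genes whose pattern over the 12 libraries was most like that of each member were ranked by the root mean square difference of centred log2 CPM, among 12601 genes. SERPINB8, a neighbour in the cluster, came first for SERPINB5 (0.08), ahead of PORCN (0.14) and C1QTNF6 (0.14). DSG3, a desmosomal cadherin of keratinocytes, came first for SERPINB13 (0.06), SLC27A4 for SERPINE2 (0.05), UBAC1 for PLAUR (0.08) and SOX9, an epithelial transcription factor, for PLAU (0.17). The closest genes were farther for SERPINB3 (CDA, 0.20) and farthest for SERPINB2 (PRDM8, 0.30) and SERPINB4 (F2R, 0.30). All libraries share the 4 groups, so these values describe the same group means and carry no test. PLAT was not ranked, since its highest group mean, 99.4 normalized counts in untreated TIGK, was under the minimum of 100.

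The members differed in how far a single library decided them. The difference of responses of PLAU, SERPINB5 and SERPINB13 passed in all 12 fits that left out 1 library, with adjusted p up to 3.56e-06, 0.000757 and 0.000313 over all alternatives, whereas the number of members that passed was 3 to 5 in those fits, against 6. Over all tested genes, the calls for this difference were 385 higher and 496 lower in TIGK, and 522 higher and 346 lower without mitochondrial genes, with 4 members higher and 2 lower against 4 higher and 0 lower.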

How the data were processed

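RNA of 12 libraries (polyA-selected, paired reads of 150 bases) was measured in 4 groups of 3, taken from the sample titles. The authors mapped reads to GRCh38 with HISAT2 (the sources name both 2.0.5 and 2.0.0), used StringTie 1.3.3b and counted reads per gene with featureCounts 1.5.0-p3. The annotation release, the strand setting and the treatment of reads with several places are not given in the sources used here. The deposited table holds whole-number raw counts per gene, with a gene length in bases, and no normalization. Tables of the authors' own comparisons, with DESeq2 fold changes and p-values for genes under their limit, were not used. No row lacked a gene (0 rows), and 0 columns of sample values were left unused.

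Counts of genes with a mean of at least 10 (16618 of 58735) were scaled by TMM and tested with edgeR 4.0.16 (quasi-likelihood test, R 4.3.3) in 1 fit over all 12 libraries, with 1 mean per group and Benjamini-Hochberg adjustment over all tested genes. A call was an adjusted p under 0.01, two-sided. Tests were checked on simulated counts. Alternatives were DESeq2 1.42.0, its size factors, no filter, the compared groups alone, a replicate block, a limit of 0.05, SERPINB3 and SERPINB4 summed, no mitochondrial genes, and each library left out in turn. Replicates differed by more than sampling noise (chi-square per degree of freedom 4.36 to 26.9 over the 12 pairs). Promoter letters came from RefSeq on GRCh38.p14 and transcripts from GENCODE. Likeness was computed for members with a mean of at least 100 normalized counts in their highest group, with the 3 nearest genes kept.

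All 9 members were named, with members of the supporting lists beside the counts of each list. A gene of the plasminogen system is not reported here and was left out of its list. Members, lists and tests were chosen with earlier results of these data known. Depths of 30426401 to 49034244 counts limit mainly PLAT and SERPINB4, the members with the lowest counts.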

Additional observations from a re-analysis of the deposited data

Results flagged for a closer look

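For 6 of the 9 genes, against 5.3% of all tested genes, the H2O2 responses of the lines differed. The test was of the difference itself (TIGK minus HaCaT on the log2 scale, interaction contrast of edgeR's quasi-likelihood test, 3 libraries in each group). These are the differences given above: PLAU 1.42 (adjusted p = 1.11e-08), SERPINB13 0.65 (adjusted p = 1.75e-05), SERPINB5 0.50 (adjusted p = 7.32e-05), SERPINE2 -0.37 (adjusted p = 0.00417), SERPINB2 0.65 (adjusted p = 0.00767) and SERPINB3 -0.82 (adjusted p = 0.0094). The signs of the separate responses were opposite for PLAU, SERPINE2, SERPINB3, SERPINB5 and SERPINB13, and both were negative for SERPINB2. Of these 5 genes, PLAU alone passed in both lines. No fit that left out 1 library kept all 6 differences, and 3 to 5 members passed. In those 12 fits PLAU, SERPINB5 and SERPINB13 passed each time, SERPINB2 in 5, SERPINE2 in 4 and SERPINB3 in 1. Without mitochondrial genes, or with the replicate block, 4 members passed.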

How the results depend on the processing

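The members called in untreated HaCaT against TIGK were 9 under every alternative run. For the TIGK response the count went from 3 to 5 with DESeq2 and to 5 at an adjusted p under 0.05, PLAUR and SERPINB13 being added both times. With each of the 12 libraries left out in turn it was 2 to 5, for the HaCaT response 5 to 6, for the lines after H2O2 7 to 8, and for the difference of responses 3 to 5. That last count was 3 without replicate 2 of TIGK with H2O2, replicates 2 or 3 of untreated HaCaT, or replicate 2 of HaCaT with H2O2, and the TIGK count was 5 without replicate 1 of HaCaT with H2O2. Over all tested genes, the calls for the difference of responses were 881, with 1426 in DESeq2 and 539 with the replicate block. They were 2019 at an adjusted p under 0.05 and 536 to 1092 with a library left out. For the TIGK response they were 3850, with 4653 in DESeq2 and 5998 at an adjusted p under 0.05. With a library left out they were 2853 to 4644 for that response. They were then 4361 to 5844 for the HaCaT response and 9131 to 10038 for the treated lines. For the untreated lines they were 9951, with 9087 to 10317 with a library left out and 11440 at an adjusted p under 0.05. The signs that turned belong to values that passed in no fit, except the SERPINB4 response of HaCaT, which passed as the sum of SERPINB3 and SERPINB4 (0.42). The PLAT response of TIGK was 0.0189 without the filter on low counts, ran from -0.19 to 0.14 with a library left out, and was 0.05, 0.13, 0.14 and 0.0126 without replicates 1 or 2 of untreated TIGK, replicate 2 of TIGK with H2O2 or replicate 1 of HaCaT with H2O2. The SERPINB4 response of HaCaT ran from -0.0292 to 0.25 and was below 0 without replicate 3 of untreated HaCaT, and the PLAUR difference of responses ran from -0.15 to 0.0135 and was above 0 without replicate 3 of TIGK with H2O2. The cause of these changes was not tested.

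Same-numbered libraries of a line did not deviate together from their group means (r across genes -0.03 to 0.01 over 6 pairs), so the numbers were not taken as pairs. With the replicate block, 3, 6, 9, 7 and 4 members were called for the TIGK response, the HaCaT response, the untreated lines, the treated lines and the difference of responses. The calls lost were the SERPINE2 (adjusted p = 0.0129) and SERPINB3 (adjusted p = 0.0297) differences of responses and PLAT between the treated lines (adjusted p = 0.0158). With DESeq2's size factors in edgeR, the SERPINB3 difference was lost (adjusted p = 0.0111). Levels per gene length moved by more than 1 SD for 10 of 36 values when raw library totals replaced the TMM scale. Depth limits PLAT and SERPINB4 most, with at most 141 and 319 raw counts in a library.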
